A study of Mus musculus with 2 samples.

Results

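Type I interferon-stimulated genes (ISGs) are the genes that cells switch on when interferon alpha or beta binds its receptor. A named set of 35 of them was followed through the main cell classes of sorted cells from YUMMER1.7 tumors, a mouse melanoma line. The members are a list of gene names, and the rule that picks them uses none of their values. The list was, however, chosen with earlier results of these data known. Of the 35, 33 were among the 32285 gene identifiers counted, and *Mx1* and *Mx2* were not analysed here. The data are 1 single-cell RNA-seq library from control mice, labelled C57BL/6, and 1 library from Dnmt1iECKO mice, labelled Cdh5CreERT2;Dnmt1fl/fl;ZsGreenlsl/lsl, all female and 8 to 10 weeks old. Per the study's methods, the control mice also carried the Cre transgene and the ZsGreen reporter, and tamoxifen activated the Cre, which the *Cdh5* promoter drives in the endothelium of every organ and not of tumors alone. Each library pooled the sorted live CD31+CD45- tumor cells of 3 mice, so no value here has a replicate and no test between conditions was made. The labels give subcutaneous tumors and melanoma cells as the cell type, and the paper gives ECs of lung tumors after tail vein injection. The question the libraries allow is which members were higher or lower in the Dnmt1iECKO library, and in which cells.

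The control library held 9301 cells with 123830489 UMIs (unique molecular identifiers, each a counted transcript) and the Dnmt1iECKO library 9522 cells with 141433493 UMIs. The libraries shared 29 barcodes. After removal of cells with fewer than 500 detected genes or over 10% mitochondrial counts, 8021 and 8102 cells remained. Cells were placed by marker genes that are not members. Endothelial cells (ECs) had UMIs of at least 3 of 8 endothelial markers, at least 2 times as many markers as of any other compartment, at least 1 UMI of *Cdh5* or *Pecam1*, and no UMI of *Ptprc*, *Epcam*, *Cspg4* or *Myh11*. There were 4352 control and 1749 Dnmt1iECKO ECs, with medians of 9765.5 and 9744 UMIs per cell, so EC depth was nearly equal. The endothelial gene *Cdh5*, itself part of the gate, was at 1432 and 1375 UMIs per 1000000 UMIs (CPM) in them. *Epcam* had 0 UMIs because the gate requires it. Of genes outside the gate, *Sox10* had 0 UMIs, *C1qa* 58 and 84 UMIs and *S100a8* 27 and 75 UMIs. Although the sort was for CD45- cells, both libraries also held T cells, B cells, NK cells, macrophages, monocytes, neutrophils, epithelial cells and fibroblasts. Another 346 control and 1397 Dnmt1iECKO immune cells had no clear type, and their member values are not given. The same holds for platelets, unassigned cells and endothelial cells left out by the gate (484 and 247). *Dnmt1*, the targeted gene, was at 50.7 CPM in control ECs and 27.7 CPM in Dnmt1iECKO ECs, a log2 ratio of −0.87 (95% interval −1.01 to −0.74). In T cells it was at 84.7 and 88.0 CPM. All intervals given are exact and cover counting error only, not the difference between mice. Differences are log2 ratios of Dnmt1iECKO over control, where higher and lower give the direction only, and members past 1.5-fold are counted separately.

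In the textbook account, interferon alpha and beta bind IFNAR1 and IFNAR2, and the kinases JAK1 and TYK2 pass the signal to the complex ISGF3, of which IRF9 is a part. ISGF3 binds the interferon-stimulated response element (ISRE) in the promoters of ISGs, whose products block viral replication and tune the signal itself. Interferon gamma acts through another receptor, and many ISGs answer to both. Loss of DNA methylation has been described to raise ISGs through double-stranded RNA from transposable elements, which is why this set is of interest where *Dnmt1* is deleted.

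The promoter sequences show what several members share. RefSeq promoters on GRCm38.p6 (250 bases before to 50 bases after the gene start) were found for 27 of the 35 members. The ISRE core, searched as GAAA, any 2 bases and GAAA again on both strands (TTTC, 2 bases, TTTC when read from the other), was in 11 of these 27 promoters (40.7%), and in 3.99% of the promoters of all 27025 genes with one. The following windows lie before the gene start and are written 5′ to 3′ along the gene's own strand, with the matched letters in capitals. Where matches overlap, they run as 1 block of capitals. They are shown because they hold 1 shared element in members whose ratios lay in different directions.
Isg15 (minus strand, chr4:156200863-156200908): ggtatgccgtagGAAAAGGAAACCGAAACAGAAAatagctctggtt
Ifit1 (plus strand, chr19:34640773-34640825): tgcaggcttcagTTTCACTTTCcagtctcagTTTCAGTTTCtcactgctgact
Ifit3 (plus strand, chr19:34583361-34583428): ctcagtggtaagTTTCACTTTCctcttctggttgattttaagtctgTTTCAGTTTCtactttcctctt
Ifit3b (plus strand, chr19:34607757-34607824): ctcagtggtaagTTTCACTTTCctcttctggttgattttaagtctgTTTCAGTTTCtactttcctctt
Rsad2 (minus strand, chr12:26456551-26456584): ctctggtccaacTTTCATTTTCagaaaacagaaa
Oas1a (minus strand, chr5:120907526-120907557): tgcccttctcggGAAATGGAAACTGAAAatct
Bst2 (minus strand, chr8:71537575-71537614): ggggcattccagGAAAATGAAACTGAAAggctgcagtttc
The *Ifit3* and *Ifit3b* windows are the same 68 bases, and both genes lie in a run of 4 IFIT genes on chromosome 19 (34550694 to 34650009, GRCm38). Reads that fit both copies cannot be assigned to one, so the split between them is uncertain. *Rsad2* and *Cmpk2* are also neighbours, on chromosome 12, as are *Oas2*, *Oas3* and *Oas1a* on chromosome 5, and *Parp14*, *Dtx3l* and *Parp9* on chromosome 16. The median log2 ratio over all ECs was −0.16 for the 10 members with an ISRE match and at least 100 UMIs, and −0.07 for the 16 without a match.

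Over all ECs the members were slightly lower in the Dnmt1iECKO library. Of the 32 members with 100 or more UMIs over both libraries, 8 were higher and 24 lower, against 46.4% higher among all 12236 genes with that minimum. The median log2 ratio of the members was −0.09 and that of all genes −0.02. Their summed level was 4645 CPM in control and 4279 CPM in Dnmt1iECKO ECs (log2 ratio −0.12, −0.13 to −0.11). Only *Slfn8* was past 1.5-fold higher, with 71 and 67 UMIs (1.43 and 3.22 CPM), and no member was past 1.5-fold lower. Among all genes 4.67% were past 1.5-fold higher and 2.60% lower. *Slfn8*, a Schlafen family gene of immune cells, was at 46.0 CPM in control macrophages and at 45.2 CPM in control T cells. In the ECs the summed CPM of 8 macrophage markers was 71.1 in control and 94.0 in Dnmt1iECKO, that of 8 T cell markers 3.36 and 9.39, and that of 6 neutrophil markers 2.15 and 9.34. Their part in the *Slfn8* value was not tested. *Oas3*, with 35 and 14 UMIs, was the 1 counted member below the minimum of 100.

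**Figure D1:**
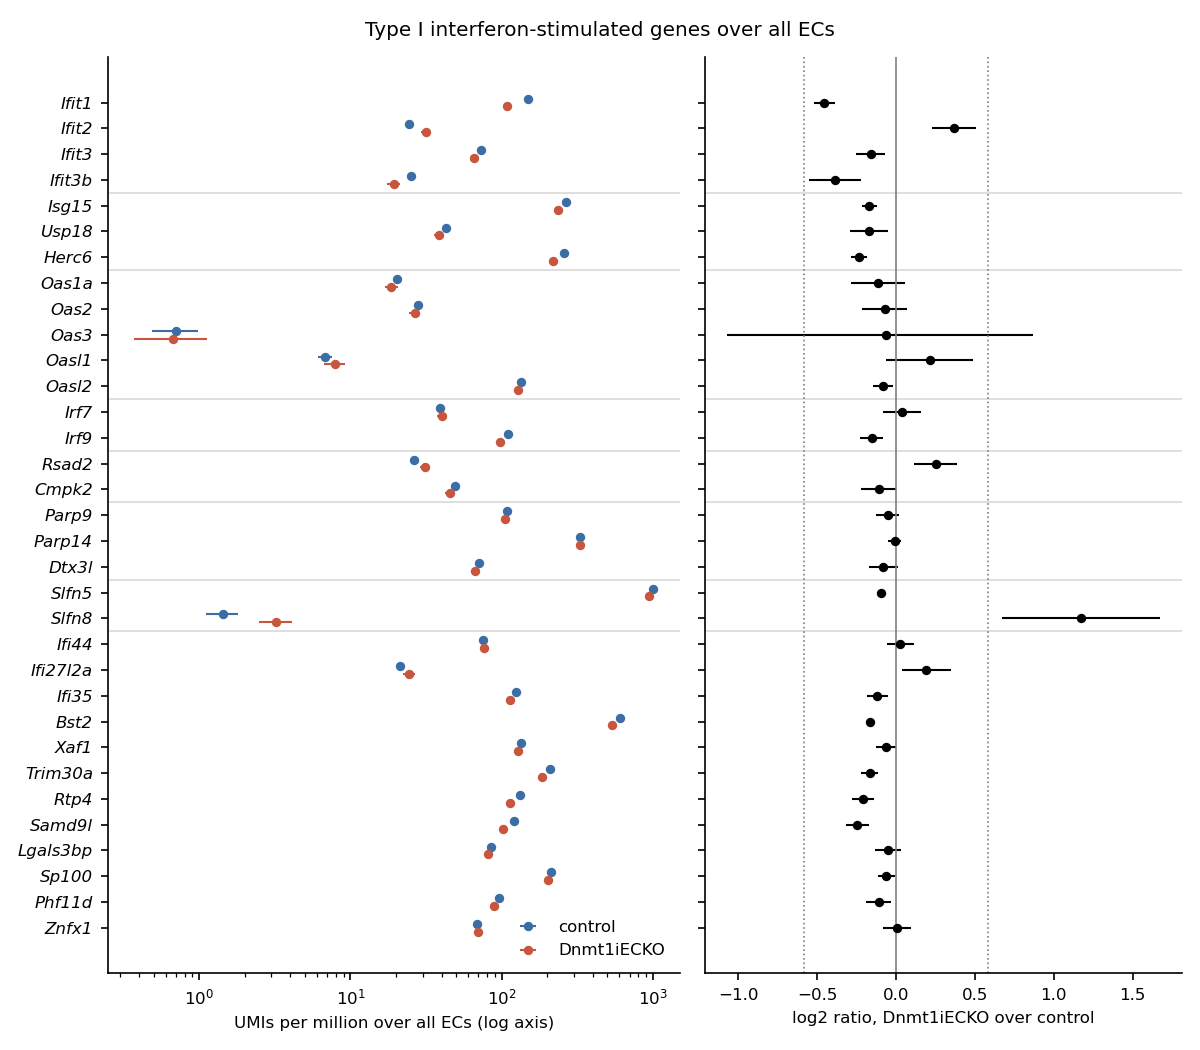
Left, CPM of each member over all ECs (log axis) for the control (blue) and Dnmt1iECKO (red) libraries with exact Poisson 95% intervals. Right, the log2 ratio with its exact 95% interval, dotted lines at 1.5-fold and horizontal lines between role groups. Most members sit just left of 0, *Ifit1* is the lowest at −0.45 and *Slfn8* is alone beyond the right dotted line.

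The IFIT proteins bind viral RNA and stop its translation. *Ifit1* gave 149 CPM in control ECs and 109 CPM in Dnmt1iECKO ECs, a log2 ratio of −0.45 (−0.52 to −0.39), the lowest of the 32 members. *Ifit3b* was at 25.2 and 19.3 CPM (−0.39, −0.55 to −0.22) and *Ifit3* at 73.1 and 65.4 CPM (−0.16, −0.25 to −0.07). *Ifit2*, in the same run of genes, went the other way at 24.3 and 31.4 CPM (0.37, 0.23 to 0.51), and without the 1 cell richest in members of each class and library its ratio was 0.21. *Ifit2* had no match to the ISRE core in its promoter window, and elements outside that window were not searched. Of the members with enough UMIs, 2 of 10 with a match and 5 of 16 without one were higher.

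ISG15 is a ubiquitin-like protein that is attached to other proteins, *Herc6* encodes the mouse ligase that attaches it, and *Usp18* encodes the protease that removes it and also dampens the receptor. *Isg15* was at 266 CPM in control ECs and 236 CPM in Dnmt1iECKO ECs (−0.17, −0.22 to −0.12). *Herc6* was at 259 and 219.6 CPM (−0.24, −0.29 to −0.19) and *Usp18* at 43.1 and 38.3 CPM (−0.17, −0.29 to −0.05). All 3 genes of this system were thus lower by a similar, small amount.

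The oligoadenylate synthetases sense double-stranded RNA. Of the 4 family members with enough UMIs, *Oas1a* (20.2 and 18.7 CPM), *Oas2* (27.9 and 26.6 CPM) and *Oasl2* (135 and 127 CPM) had log2 ratios between −0.11 and −0.07, and *Oasl1* had 0.21 (−0.06 to 0.49) on 338 and 164 UMIs. The transcription factor *Irf9*, the DNA-binding part of ISGF3, was at 109 and 98.1 CPM (−0.16), whereas *Irf7*, which amplifies interferon alpha production, was at 38.9 and 40.0 CPM (0.04, −0.08 to 0.16). At the viperin locus *Rsad2*, which makes a chain-terminating nucleotide, was at 26.2 and 31.1 CPM (0.25, 0.11 to 0.39) and its neighbour *Cmpk2* at 48.9 and 45.3 CPM (−0.11). *Rsad2* and *Cmpk2* thus differed in direction over all ECs in spite of their shared locus. One control cell held 22.9% and one Dnmt1iECKO cell 25.0% of the *Rsad2* UMIs of the ECs of its library. In the EC classes described below the contrast varied. The ratios of *Rsad2* and *Cmpk2* were 0.38 and −0.05 in *Kit*/*Bmp6* ECs and 1.92 and 0.04 in *Slc6a2*/*Selp* ECs. They were −0.79 and −0.003 in *Ednrb*/*Car4* ECs and −0.83 and −0.44 in ECs with no clear pair.

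The genes of ADP-ribosylation and its partner ligase, *Parp9*, *Parp14* and *Dtx3l*, lay between −0.08 and −0.01, and the interval of each held 0. Among the 12 other effectors, *Samd9l*, which restrains translation in infected cells, was at 121 and 102 CPM (−0.25, −0.32 to −0.17) and *Rtp4* at 132 and 114 CPM (−0.21). *Bst2*, the tetherin that holds budding virus at the cell surface, was at 602 and 538 CPM (−0.16, −0.19 to −0.13). *Slfn5*, the largest contributor to the summed level, was at 1004 and 938 CPM (−0.10). *Ifi27l2a* was at 21.3 and 24.3 CPM (0.19, 0.04 to 0.35). In monocytes it was at 637 and 738 CPM and in B cells at 234 and 292 CPM. Immune cells made up 14.4% of control and 52.6% of Dnmt1iECKO cells passing the filters. The part of immune RNA in the EC value was not tested. *Rtp4*, *Herc6*, *Irf9* and *Parp14* each overlap another gene on the same strand, so the counting of their reads is less certain. Without *Slfn5* and *Bst2* the summed log2 ratio of the remaining members was still −0.12.

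Upstream of the members, *Ifnb1* had a UMI in 0 of 4352 control and 0 of 1749 Dnmt1iECKO ECs, which allows a share of cells with a UMI of up to 0.0689% and 0.172%. The 16 type I interferon genes searched gave 5 UMIs in control ECs and 3 in Dnmt1iECKO ECs. Macrophages held *Ifnb1* in 5 of 163 control cells (22 UMIs) and 8 of 411 Dnmt1iECKO cells (33 UMIs). The receptor genes were slightly higher in Dnmt1iECKO ECs, *Ifnar1* at 77.5 and 91.7 CPM (0.24, 0.16 to 0.32) and *Ifnar2* at 187 and 200.5 CPM (0.10). *Stat2*, a subunit of ISGF3, was at 175 and 162 CPM (−0.11). The feedback inhibitor *Socs1* was at 68.9 and 58.0 CPM (−0.25) and *Socs3* at 601 and 654 CPM (0.12).

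Of the 16 interferon gamma effectors, 11 were higher in the same ECs (46.4% of all genes), their median log2 ratio was 0.07 and their summed log2 ratio 0.10 (0.09 to 0.11). The chemokine *Cxcl9* and the ubiquitin-like gene *Ubd* were the 2 past 1.5-fold higher (4.67% of all genes), at 1.45 and 1.69. *Irgm2* and *Igtp* of the same list were at −0.11 and −0.12. The direction of the list varied between the EC classes described next. In *Kit*/*Bmp6* ECs 11 of 16 were higher (47.5% of all genes in this class, summed log2 ratio 0.08). In *Ednrb*/*Car4* ECs 6 of 16 were higher (46.2% of all genes, −0.11, −0.14 to −0.08). In ECs with no clear pair 4 of 16 were higher (48.7% of all genes, −0.25, −0.28 to −0.22). Each of these sums lay below that over all ECs. The list's values in *Slc6a2*/*Selp* and *Gja5*/*Bmx* ECs are not given here. *Slc6a2*/*Selp* ECs made up 2.80% of control and 8.75% of Dnmt1iECKO ECs, and the part of class mix was not tested. The difference between the lists was not tested.

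The EC classes were set by 2 marker genes each, with at least 2 UMIs of the pair. *Ednrb* and *Car4* mark aerocytes, the large gas-exchange capillary cells of the lung, *Kit* and *Bmp6* mark general capillary cells, *Slc6a2* and *Selp* veins, and *Gja5* and *Bmx* arteries. They held 1307, 2219, 122 and 23 control cells and 393, 862, 153 and 31 Dnmt1iECKO cells, and 681 and 310 ECs had no clear pair. *Dnmt1* was lower in each class, with log2 ratios of −0.92 in *Ednrb*/*Car4* ECs, −0.82 in *Kit*/*Bmp6* ECs, −0.30 (−0.77 to 0.17) in *Slc6a2*/*Selp* ECs and −1.28 in the ECs with no clear pair. Class composition differed between the libraries, and with the classes weighted by their control shares the median ratio of the members over all ECs was −0.08.

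In *Kit*/*Bmp6* ECs, the largest class, the members were near even. Of 33 members with at least 20 UMIs, 14 were higher (47.5% of all genes in this class) and the summed levels were 4861 and 4736 CPM. *Slfn8*, with 31 and 34 UMIs, was the only member past 1.5-fold higher (5.96% of all genes) and none was past it lower (5.91%). *Ifit3b* was at 30.1 and 20.9 CPM (−0.53, −0.75 to −0.30) and *Ifit1* at 178 and 139 CPM (−0.36). *Ifit2* was at 20.96 and 30.9 CPM (0.56, 0.35 to 0.77). A single Dnmt1iECKO cell of this class held 26.9% of its *Ifit2* UMIs, and without the richest cell of each library the ratio was 0.18.

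In *Ednrb*/*Car4* ECs 6 of 31 members were higher (46.2% of all genes), with a median of −0.15. None was past 1.5-fold higher (4.01% of all genes) and 3 were past it lower, 9.68% of the members and 7.39% of all genes. *Ifit1* was at 83.4 and 50.04 CPM (−0.74, −0.94 to −0.53) and *Rsad2* at 14.9 and 8.59 CPM (−0.79, −1.31 to −0.30). *Rsad2* rested on few cells there, since its ratio was −0.36 without the richest cell of each library, while that of *Ifit1* was −0.87.

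In the ECs with no clear pair most members were lower. Of 32 members 3 were higher (48.7% of all genes), none past 1.5-fold (6.20%) and 6 were past it lower (5.96% of all genes, 18.8% of the members). *Ifit1* was at 189.8 CPM in control and 88.7 CPM in Dnmt1iECKO (−1.10, −1.29 to −0.91) and *Usp18* at 48.6 and 30.7 CPM (−0.66, −1.01 to −0.33). *Rsad2* was at 32.6 and 18.4 CPM (−0.83), which became −0.07 without the richest cell of each library. This class had a median of 6839 UMIs per control cell, below that of the pair classes.

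In *Slc6a2*/*Selp* ECs 9 of 33 members were higher (49.4% of all genes), with a median of −0.22. Past 1.5-fold, 4 were higher (8.07% of all genes) and 4 lower (6.48%). *Isg15* was at 354 and 235 CPM (−0.59, −0.75 to −0.44), *Trim30a* at 275 and 185 CPM (−0.57) and *Irf7* at 50.5 and 29.0 CPM (−0.80, −1.24 to −0.36). Against these, *Rsad2* had 21 UMIs in 122 control cells and 104 UMIs in 153 Dnmt1iECKO cells (1.92, 1.23 to 2.67), and *Ifit2* had 22 and 82 UMIs (1.51, 0.81 to 2.26). The *Rsad2* value did not hold when cells needed UMIs of both *Slc6a2* and *Selp*, where its ratio was −0.35. *Gja5*/*Bmx* ECs gave 20 of 24 members higher (48.5% of all genes), 12 past 1.5-fold (16.7% of all genes) and a summed log2 ratio of 0.26 (0.14 to 0.38), on 23 and 31 cells. One cell held 16.9% of the member UMIs of this class in control and 18.4% in Dnmt1iECKO.

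**Figure D2:**
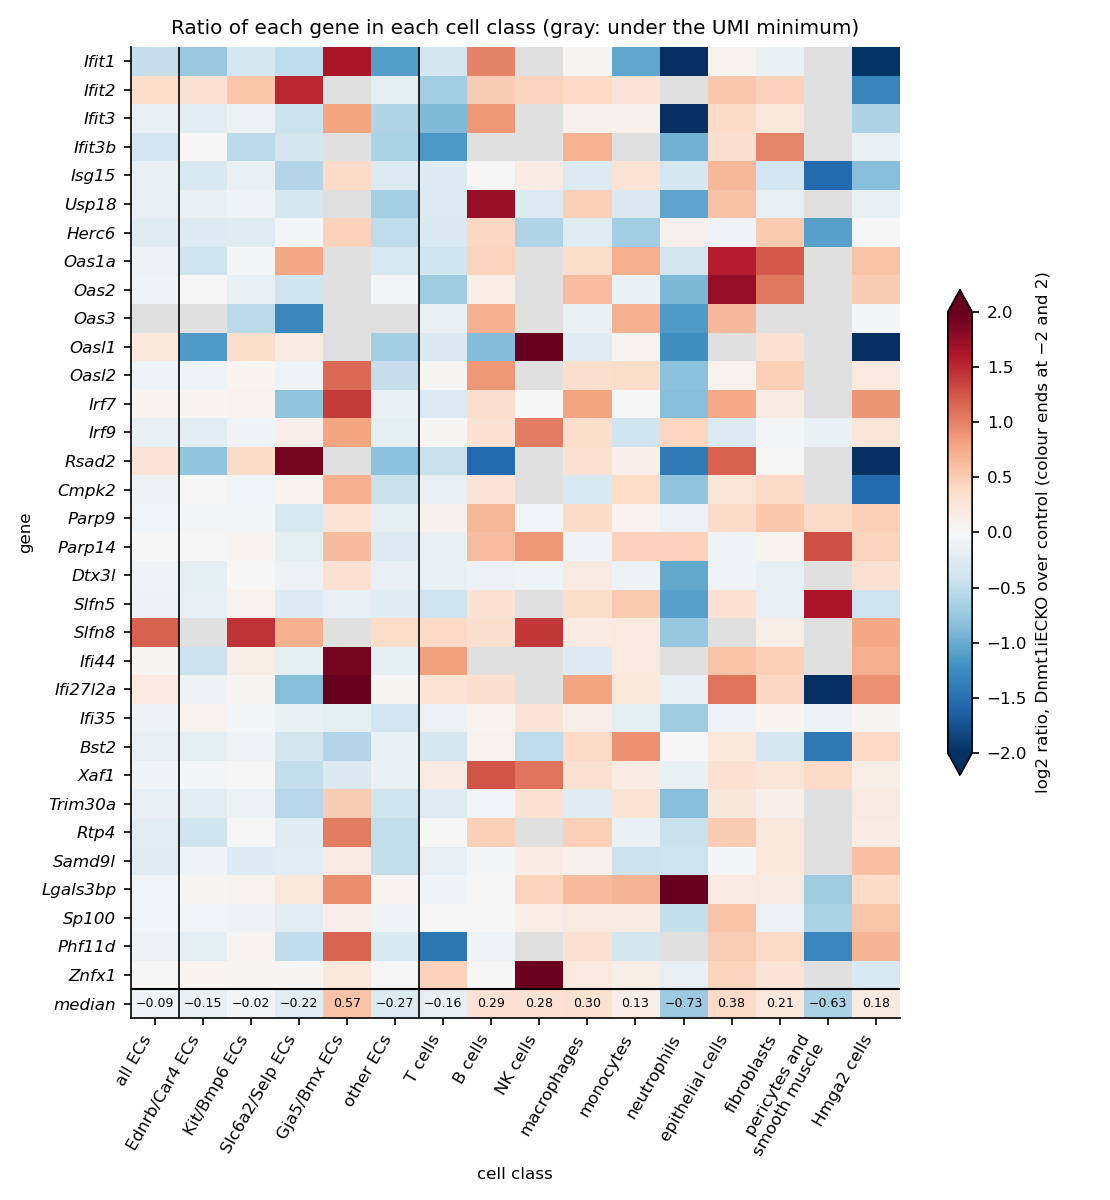
Log2 ratio of Dnmt1iECKO over control for each member (rows) in each cell class (columns), red for higher and blue for lower, with the median in the last row and gray where a member had fewer than 20 UMIs (100 over all ECs). Blue prevails in the EC columns except *Kit*/*Bmp6* ECs, which are near even, and *Gja5*/*Bmx* ECs. Red prevails in macrophages, epithelial cells, fibroblasts, B cells, NK cells and monocytes.

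Macrophages were higher for most members. Of 33 members 25 were higher (57.6% of all genes in this class), the median was 0.30 and the summed level was 2538 CPM in 163 control and 2982 CPM in 411 Dnmt1iECKO cells (0.23, 0.20 to 0.26). Past 1.5-fold, 5 members were higher (9.16% of all genes, 15.2% of the members) and none lower (6.00% of all genes). *Irf7* was at 51.1 and 88.1 CPM (0.79, 0.60 to 0.98), *Ifi27l2a* at 179 and 309 CPM (0.79, 0.68 to 0.89) and *Lgals3bp*, a secreted glycoprotein, at 236 and 367 CPM (0.64, 0.55 to 0.73). *Isg15* was lower at 343 and 285 CPM (−0.27), as were *Trim30a* (−0.25), *Herc6* (−0.24) and *Oasl1* (−0.24). Of the class checks, *C1qa* was at 2366 CPM in control and 3331 CPM in Dnmt1iECKO macrophages, and its part in these values was not tested.

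Neutrophils went the opposite way. Of 30 members 5 were higher (50.1% of all genes), the median was −0.73 and 16 were past 1.5-fold lower (14.7% of all genes, 53.3% of the members), with 1 past it higher (19.5%). *Rsad2* was at 341 and 128 CPM (−1.41, −1.78 to −1.02), *Trim30a* at 608 and 336 CPM (−0.85, −1.12 to −0.58) and *Oasl2* at 345 and 196 CPM (−0.82, −1.17 to −0.45). *Ifit3* was at 235 and 27.9 CPM (−3.08), but 1 control cell held 70.7% of its 58 control UMIs, and without the richest cell of each library the ratio was −1.47. One control neutrophil held 13.3% of the member UMIs of its class, and without the richest cell of each library the median was −0.41, with 7 of 30 members higher. Only 49 control neutrophils were found, with a median of 4795 UMIs, against 274 in the Dnmt1iECKO library. *S100a8*, a defining neutrophil gene, was at 13636 CPM in control and 24645 CPM in Dnmt1iECKO, and its part was not tested. In the control library, neutrophils were the class with the highest CPM for 10 of the 33 members, among them *Isg15* at 1464 CPM and *Oas3* at 162 CPM.

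In lymphocytes the direction varied. In T cells 9 of 33 members were higher (53.9% of all genes), 1 past 1.5-fold (10.7%) and 5 past it lower (5.48%), while the summed levels were 2319 and 2249 CPM (−0.04). *Ifi27l2a*, at 498 and 602 CPM (0.27, 0.20 to 0.35), and *Slfn8*, at 45.2 and 59.2 CPM (0.39), were among the higher ones. *Ifit3* was at 27.4 and 15.0 CPM (−0.88), and its ratio was 0.01 without the 1% of cells richest in members. In B cells 23 of 31 members were higher (42.0% of all genes), 8 past 1.5-fold (6.59%) and 2 past it lower (10.1%), with a summed log2 ratio of 0.14. *Parp9* was at 37.2 and 58.7 CPM (0.66, 0.29 to 1.04) and *Parp14* at 64.1 and 98.4 CPM (0.62, 0.34 to 0.91). In NK cells, 45 in the control library and 142 in the other, 15 of 20 members were higher (50.2% of all genes), 7 were past 1.5-fold (13.9%) and 1 was past it lower (11.7%). With cells thinned to 2000 UMIs 3 of 6 members with enough UMIs were higher there. In monocytes, 35 and 132 cells, 22 of 32 were higher (48.0%), 4 past 1.5-fold (14.0%) and 2 past it lower (9.74%), and *Bst2* was at 317 and 589 CPM (0.89, 0.67 to 1.12). The direction in monocytes did not hold when each cell counted alike, with 11 of 32 members higher and a median of −0.16 in place of 0.13, or with thinned cells, with 9 of 21 higher.

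Epithelial cells, with *Epcam* at 299.9 and 321.5 CPM, gave the highest summed ratio of any class, 1118 CPM in 207 control and 1468 CPM in 108 Dnmt1iECKO cells (0.39, 0.33 to 0.45). Of 31 members 25 were higher (42.5% of all genes), 8 past 1.5-fold (7.35%) and none past it lower (8.93%). *Ifi27l2a* was at 133 and 278 CPM (1.07, 0.91 to 1.22), *Isg15* at 75.4 and 119 CPM (0.66, 0.43 to 0.88) and *Usp18* at 30.4 and 45.7 CPM (0.59). These sums were carried by few cells. The richest Dnmt1iECKO epithelial cell held 15.6% of the member UMIs of its class and 26.9% of those of *Isg15*, and when each cell counted alike 17 of 31 members were higher. *Dnmt1* was also lower in the epithelial cells, at 30.6 and 19.4 CPM (−0.66, −1.14 to −0.19).

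In fibroblasts 23 of 32 members were higher (52.4% of all genes), 3 past 1.5-fold (9.12%) and none past it lower (4.78%), with a median of 0.21. *Herc6* was at 39.8 and 57.3 CPM (0.52, 0.26 to 0.79), *Parp9* at 24.9 and 36.0 CPM (0.53) and *Oasl2* at 37.9 and 52.9 CPM (0.48, 0.21 to 0.75). *Isg15* was lower at 202 and 154 CPM (−0.39), and 1 control cell held 22.6% of its control UMIs. Its ratio was −0.10 without the richest cell of each library and 0.16 without the richest 1% of cells. Pericytes and smooth muscle cells, 33 and 28 cells, had 13 members with enough UMIs, and 4 of these were higher (48.4% of all genes), 2 past 1.5-fold (15.2%) and 7 past it lower (17.1% of all genes, 53.8% of the members). When each cell counted alike, 7 of the 13 were higher.

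The putative tumor cells were those with at least 5 UMIs of *Hmga2*, 192 in control and 233 in Dnmt1iECKO. They were placed by this gene alone, so cells that also had markers of other compartments were not left out of them. The immune gene *Ptprc* was at 13.3 CPM in control and 3.52 CPM in Dnmt1iECKO, and the fibroblast gene *Dcn* at 165 and 205 CPM. Of the melanocyte genes, *Sox10*, *Mlana*, *Pmel*, *Tyr* and *Dct* were at or near 0 in them, so they are called *Hmga2* cells here. Members split in these cells, with 20 of 33 higher (52.9% of all genes), 6 past 1.5-fold (8.20%) and 7 past it lower (5.43%). The 7 lower ones were *Rsad2*, *Oasl1*, *Ifit1*, *Cmpk2*, *Ifit2*, *Isg15* and *Ifit3*. *Rsad2* was at 58.7 and 7.03 CPM (−3.06, −3.34 to −2.79), *Oasl1* at 13.5 and 2.84 CPM (−2.24), *Ifit1* at 134 and 34.4 CPM (−1.96), *Cmpk2* at 25.2 and 8.59 CPM (−1.55), *Ifit2* at 78.1 and 31.2 CPM (−1.32) and *Isg15* at 457 and 253 CPM (−0.85). One control cell with 121069 UMIs accounted for 3764 member UMIs, 16.2% of all member UMIs of the 192 cells. It held 415 of the 724 *Rsad2* UMIs, 173 of the 311 *Cmpk2* UMIs, 720 of the 1650 *Ifit1* UMIs and 443 of the 963 *Ifit2* UMIs. Without the richest cell of each library *Rsad2* was at −1.93, *Cmpk2* at −0.42 and *Ifit2* at −0.46, and 24 of 33 members were higher. That control cell had 0 UMIs of *Ptprc* and of the 8 macrophage markers, whose summed level over the class was 117 CPM in control and 22.8 CPM in Dnmt1iECKO, and the part of these markers in the other cells' values was not tested.

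**Figure D3:**
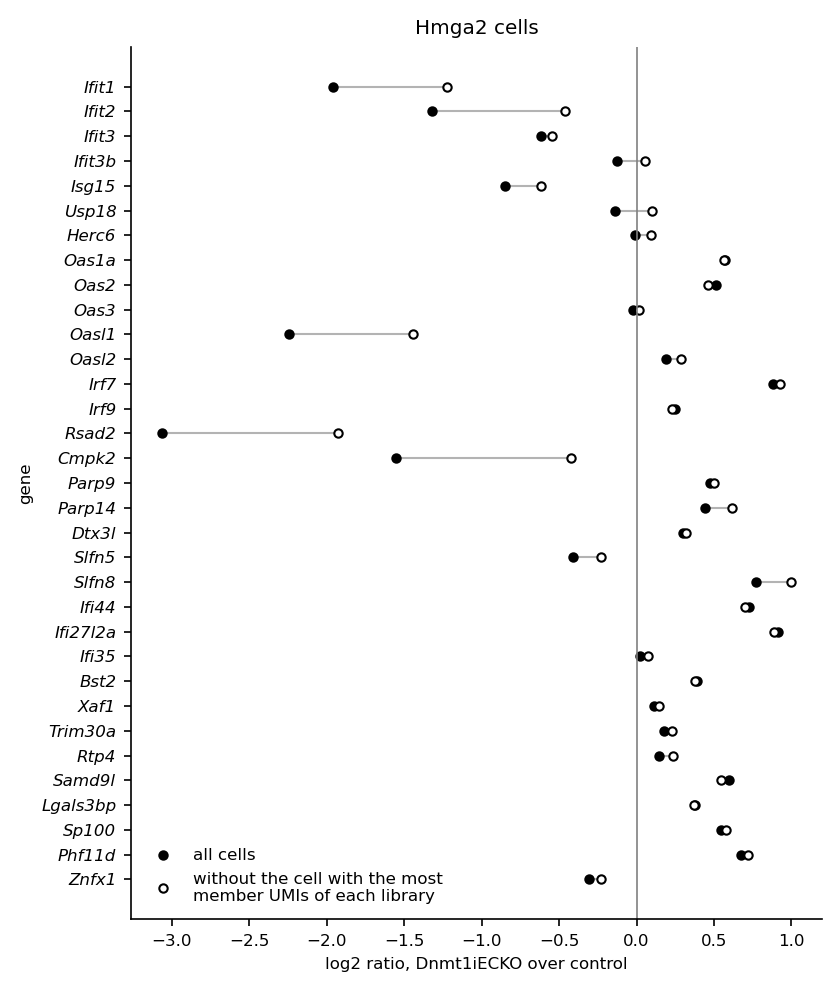
Log2 ratio of each member in *Hmga2* cells over all 192 control and 233 Dnmt1iECKO cells (filled) and without the cell with the most member UMIs of each library (open). The open points of *Rsad2*, *Cmpk2*, *Ifit2*, *Ifit1* and *Oasl1* lie well to the right of the filled ones, and most other members move little.

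Other members were higher in the *Hmga2* cells of the Dnmt1iECKO library. *Irf7* was at 11.9 and 21.9 CPM (0.88, 0.61 to 1.16), *Ifi27l2a* at 14.8 and 27.9 CPM (0.91), *Phf11d* at 21.9 and 34.9 CPM (0.67) and *Bst2* at 377 and 495 CPM (0.39, 0.34 to 0.44). The share of cells with a UMI was higher too, for example 31.2% and 55.4% for *Phf11d*, while the median depth was 55972.5 and 78625 UMIs. To remove depth, each cell was thinned to 2000 UMIs. At least 3 members were then found in 21.8% of 188 control cells (16.1 to 28.4%) and 38.0% of 229 Dnmt1iECKO cells (31.7 to 44.6%).

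Across classes, the same thinned measure showed how widely the members were detected. There was no unstimulated reference, so it does not show how many cells were responding to interferon. At least 3 members were found in 86.4% of control ECs (85.3 to 87.4%) and 84.2% of Dnmt1iECKO ECs (82.3 to 85.9%). In macrophages the shares were 48.8% (40.9 to 56.7%) and 66.1% (61.3 to 70.7%), and in fibroblasts 33.3% (27.2 to 40.0%) and 41.7% (36.3 to 47.1%). In T cells they were 47.0% and 49.0%, with overlapping intervals, and in neutrophils 73.5% (58.9 to 85.1%) and 65.3% (59.2 to 71.0%). In epithelial cells, with the highest summed ratio, the share was lower in Dnmt1iECKO, 35.2% (28.2 to 42.7%) and 28.4% (19.9 to 38.2%), with overlapping intervals. No class is known to lack these genes, so the part of free RNA in these shares could not be estimated. Members took a median of 35.2 of 10000 UMIs in control ECs and 32.98 in Dnmt1iECKO ECs, 17.2 and 21.7 in macrophages, and 5.27 and 11.1 in *Hmga2* cells.

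**Figure D4:**
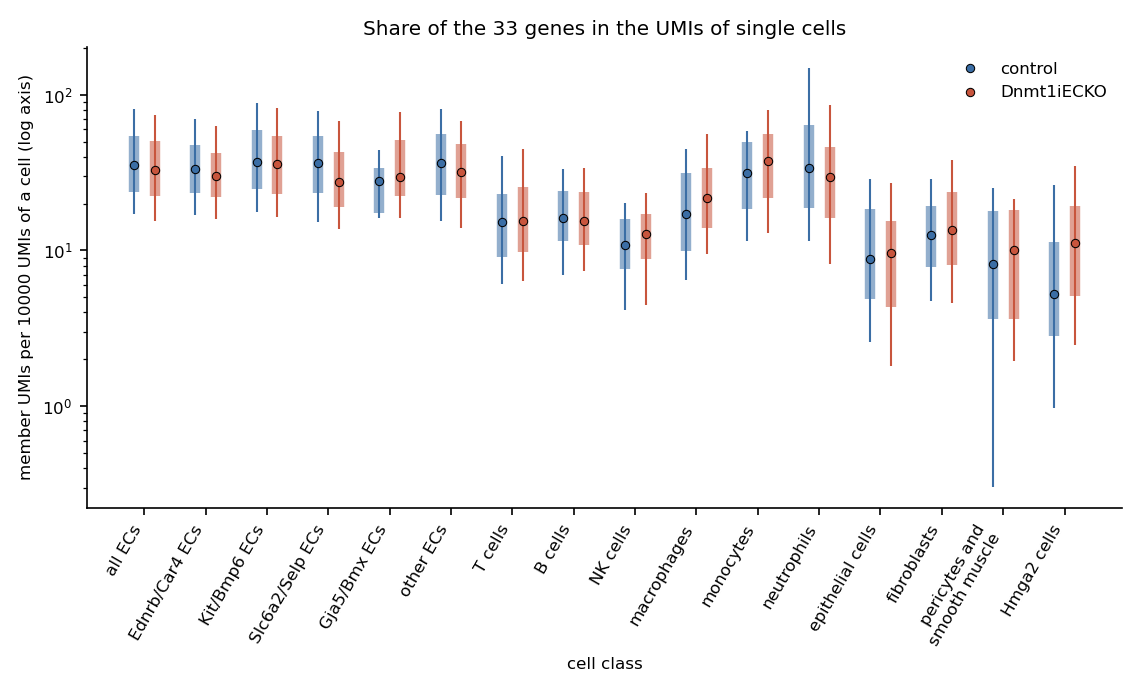
UMIs of the 33 members per 10000 UMIs of a cell (log axis) by class and library. Points are medians over cells, thick bars the 25th to 75th percentile and thin bars the 10th to 90th percentile. The EC classes, monocytes and neutrophils sit highest in both libraries, and the Dnmt1iECKO points of macrophages and *Hmga2* cells lie above those of control.

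Within ECs some members were spread over most cells and others sat in a few. *Slfn5* and *Bst2* were found in 90.3% and 90.1% of control ECs, and the 1% of ECs richest in each held 7.58% and 7.95% of its UMIs. *Rsad2* was found in 8.69% of control and 8.63% of Dnmt1iECKO ECs, and the richest 1% held 64.5% and 64.6% of its UMIs. One control cell had 298 *Rsad2* UMIs and one Dnmt1iECKO cell 162. *Ifit2* was intermediate, with 34.4% and 44.0% of its UMIs in the richest 1%, as was *Oasl1* with 40.8% and 40.9%. These shares shrink with the total count of a gene, which for *Slfn8* was too low to read them.

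**Figure D5:**
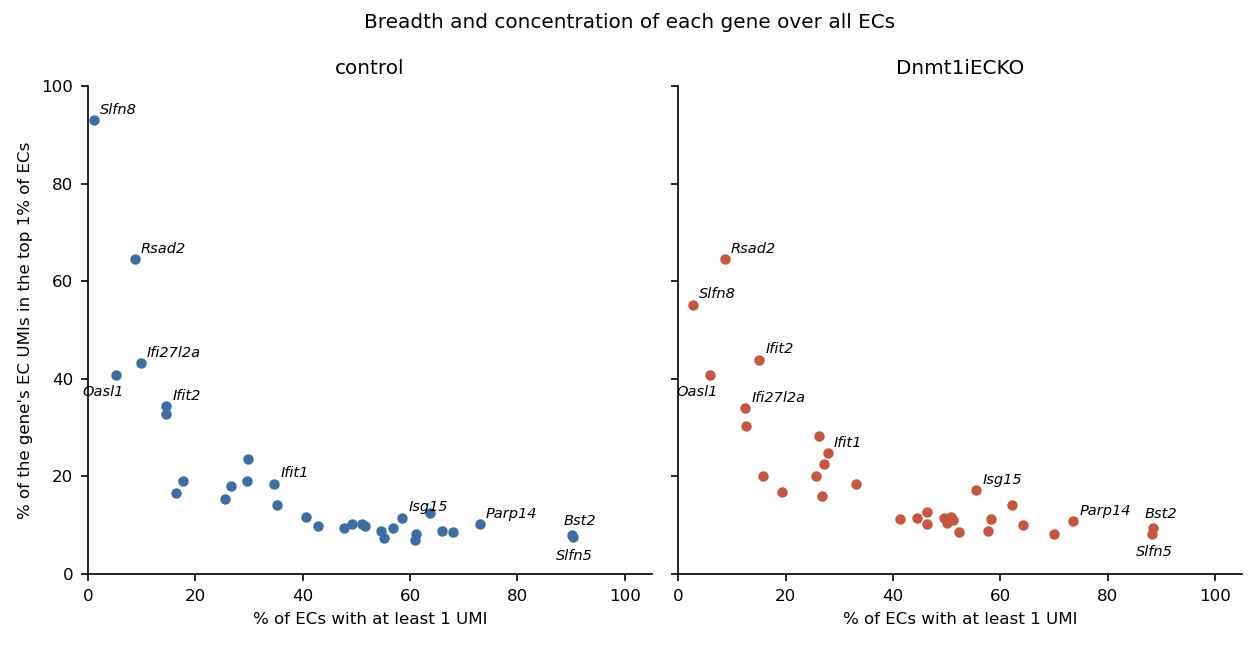
For each of the 32 members, the percent of ECs with at least 1 UMI against the percent of the gene's EC UMIs held by the 1% of ECs richest in that gene, in control (left) and Dnmt1iECKO (right). *Rsad2* is found in few ECs and is the most concentrated besides the sparse *Slfn8*, and *Slfn5* and *Bst2* lie at the lower right in both libraries.

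The ECs richest in *Rsad2* were rich in most other members as well. In the 44 control cells of the top 1%, *Ifit3* was at 905 CPM against 64.7 CPM in the other ECs, 13.98 times as high, *Cmpk2* was 13.5 times, *Ifit3b* 13.1 times and *Ifit2* 12.3 times as high. In the 18 Dnmt1iECKO cells, *Ifit2* was 24.3 times, *Oasl1* 17.2 times and *Ifit3* 13.6 times as high. In each library these values lean in part on 1 cell. The control cell with 298 *Rsad2* UMIs held 112 *Ifit3*, 106 *Cmpk2* and 22 *Ifit2* UMIs. The Dnmt1iECKO cell with 162 *Rsad2* UMIs held 83 *Ifit2*, 80 *Ifit3* and 15 *Oasl1* UMIs. These are 12.7%, 5.89% and 9.15% of the UMIs of each gene over all Dnmt1iECKO ECs. Values without these cells are not given here. Less than 2 times as high in the control cells were *Lgals3bp* (1.95), *Bst2* (1.73), *Irf9* (1.71), *Ifi35* (1.70), *Slfn5* (1.68) and *Ifi27l2a* (1.43). *Oas3* was at 0 CPM in them. Across single cells the closest pair was *Ifit1* and *Isg15*, with Pearson's r of 0.53 over 4352 control and 0.49 over 1749 Dnmt1iECKO ECs on the log scale, where the points share a library and cell depth. *Ifi27l2a*, *Slfn8* and *Oas3* had no r above 0.12 with any other member in either library, and of these *Ifi27l2a* was found in 9.81% and 12.5% of ECs, *Slfn8* in 1.13% and 2.74%.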

How the data were processed

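Per the study's methods and the labels, live CD31+CD45- cells of pooled tumors were loaded for 10x 3′ single-cell RNA-seq and counted by the authors with Cell Ranger 9.0.1 on mm10. The deposited values are raw UMI counts per gene and cell, with no normalization. Cells with at least 500 genes and at most 10% mitochondrial counts were kept and placed by marker genes. No doublet caller was run. Cells with markers of 2 compartments were left out (882 control and 639 Dnmt1iECKO cells), but this filter was not applied to *Hmga2* cells. UMIs were summed per class and library and given as counts per 1000000 (CPM), in Python 3.11.15 with numpy 2.4.6 and scipy 1.17.1. Ratios carry exact conditional Poisson 95% intervals, levels exact Poisson and shares Clopper-Pearson intervals, all for counting error only. A member needed 100 UMIs over all ECs, or 20 in a class, in both libraries together. A single member is named within a class from 100 UMIs, apart from *Slfn8* in *Kit*/*Bmp6* ECs. For shares of cells, each cell was thinned to 2000 UMIs at random, and shallower cells were left out (223 control and 110 Dnmt1iECKO ECs). With 1 library per condition no p-value was computed. The named genes are all members and the pathway lists. The members and lists were chosen with earlier results of these data known. The code was tested on simulated counts. One gene of the receptor and signal list is not reported here.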

Additional observations from a re-analysis of the deposited data

Results flagged for a closer look

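In 7 classes the summed CPM of the members was higher in the Dnmt1iECKO library, whereas over all ECs it was lower (log2 ratio −0.12). The summed log2 ratio was 0.39 in epithelial cells, 0.31 in NK cells, 0.26 in *Gja5*/*Bmx* ECs, 0.25 in monocytes, 0.23 in macrophages, 0.14 in B cells and 0.11 in fibroblasts. Each is the opposite direction to that of all ECs, and with 1 library per condition the difference between classes was not tested.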

How the results depend on the processing

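The median log2 ratio over all ECs stayed between −0.10 and −0.06 over 14 settings of the cell filters, gates, scaling, UMI minimum, weighting and left-out cells. The settings that left out the richest cell, the richest 1% of cells or shared barcodes were chosen after seeing the data. Without the richest 1% of cells 2 members passed 1.5-fold over all ECs, *Slfn8* and *Rsad2*. Medians moved to −0.11 in epithelial cells and 0.51 in *Hmga2* cells with cells thinned to 2000 UMIs, and turned to 0.14 in pericytes and smooth muscle cells with the mean of single-cell values. The median also changed sign in *Gja5*/*Bmx* ECs (−0.11, 4 members) and NK cells (−0.08, 6 members) when thinned, and in monocytes when thinned (−0.13) and as a mean of single-cell values (−0.16). The share of ECs in control and Dnmt1iECKO was 94.9% and 94.8% for at least 2 members, 56.9% and 54.9% for at least 5, and 57.6% and 53.7% for 3 members after thinning to 1000 UMIs. Single members turned in direction as follows. With both genes of a pair required, *Rsad2* was at −0.35 in *Slc6a2*/*Selp* ECs and 0.23 in ECs with no clear pair. In the latter it was at 0.0061 without the richest 1% of cells and 0.078 as a mean over cells. *Oasl1* in B cells was at 0.024 without the richest cell and 0.23 thinned, and *Ifit3* in T cells at 0.0087 without the richest 1%. Thinned, *Isg15* was at −0.49 in epithelial cells, *Ifit3* at 0.15 and *Ifi44* at −0.16 in *Hmga2* cells. The cause of these moves was not tested. Of 212 medians 209 were counted as the same, by the rule that they moved less than the median half-width of the single-member intervals of their class. That width is not the counting error of a median, and for medians near 0 the rule does not mean that the direction held. Of 4862 single-member values, 4517 were counted as the same, by staying within their main 95% interval. Of 289 shares of cells, 93 lay outside their main interval, among them settings that changed the measure itself.

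No paired analysis was possible because each condition has 1 library, and for the same reason no replicate could be left out. A minimum of 9000 detected genes was not run, as it left under 20 ECs per library. Thinning left no member with enough UMIs in pericytes and smooth muscle cells. Depth limits the classes under 50 control cells most, *Gja5*/*Bmx* ECs with 23 cells, pericytes and smooth muscle cells with 33, monocytes with 35, NK cells with 45 and neutrophils with 49.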

Other observations

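The ECs richest in *Rsad2* differed between the libraries in 1 chemokine. *Cxcl9*, a ligand of CXCR3 on T cells, was at 84.6 CPM in the 44 control cells and 50.9 CPM in the other control ECs, 1.66 times as high. In the 18 Dnmt1iECKO cells it was at 1523 CPM and in the other Dnmt1iECKO ECs at 123 CPM, 12.4 times as high. *Cxcl10*, another ligand of that receptor, was 4.55 and 5.24 times as high, and *Ubd* 5.16 and 3.52 times. *Ifi27l2a* was 1.43 and 4.34 times as high. These genes were looked at after their values were known, the top cells of each library may share few sources, and the difference was not tested.

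Across the 15 classes, *Lgals3bp* was higher in the Dnmt1iECKO library in 12 of the 15 classes with enough UMIs, *Slfn8* in 10 of 11 and *Znfx1* in 11 of 14. The interval lay wholly above 0 in 6, 4 and 1 of these classes, and wholly below 0 in 0, 0 and 1. *Isg15* was higher in 4 of 15, *Herc6* in 4 of 15, *Usp18* in 3 of 13 and *Dtx3l* in 3 of 14. For them the interval lay wholly below 0 in 10, 6, 1 and 0 classes, and wholly above 0 in 2, 1, 3 and 1. These genes are the ends of the range of the 33 members, and the same counts over all genes were not made. The classes come from the same 2 libraries and are not independent.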
